A study of Mus musculus with 6 samples.

Results

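The transcription factors described here are 10 genes that mark or specify the dorsal telencephalon, the part of the embryonic forebrain that forms the cerebral cortex and hippocampus. They are *Emx1*, *Emx2*, *Pax6*, *Lhx2*, *Otx1*, *Nr2f1*, *Nr2f2*, *Tbr1*, *Eomes* and *Fezf2*. They were taken by symbol from a table of 32493 genes, and all 10 had a row. The table holds RNA-seq counts of neural stem cells (NSCs) grown from the brains of mouse embryos at E14.5 (the embryonic day) and expanded for 3 generations. The cko embryos were homozygous for a floxed miR-151 allele (miR-151 fl/fl) and carried Emx1-IRES-Cre, a Cre recombinase gene placed in *Emx1* and active in the dorsal telencephalon. The ctrl embryos, which the labels call wildtype, were also miR-151 fl/fl but had no Cre. The miR-151 precursor lies in an intron of *Ptk2*. Loss of miR-151 and the presence of the Emx1-IRES-Cre allele go together in these groups and cannot be told apart. The mice were on a C57BL/6J background.

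Libraries cko 1, cko 2 and cko 3 were compared with ctrl 1 and ctrl 3. The column labelled ctrl 2 is the mean of the other ctrl columns, rounded up, in all 32493 genes, and it was counted in no n. The 5 libraries held 17883796 to 23335736 counts each, so that 3 counts correspond to 0.129 to 0.168 CPM, the count scaled to library size. The NSC markers *Sox2*, *Nes* and *Vim* were present in every library, with *Sox2* between 556 and 625 CPM, and the microglial markers *Cx3cr1* and *Tmem119* were at 0 counts in every library. The labels do not tie libraries to embryos or litters, so the p-values measure the spread between these samples, which may be technical. In bulk RNA, fewer cells of a type and less RNA per cell cannot be told apart.

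As background, progenitors of the dorsal telencephalon are patterned by transcription factors expressed in gradients or shared across the cortical field. *Emx1* and *Emx2* are homeobox genes of the cortical primordium, *Pax6* is a paired-box gene of cortical radial glia, *Lhx2* is a selector gene that keeps progenitors cortical rather than hem, and *Otx1* is a homeobox gene of the cortical ventricular zone. *Nr2f1* and *Nr2f2* encode the orphan nuclear receptors COUP-TFI and COUP-TFII, which act in cortical area patterning. *Eomes* (TBR2) marks intermediate progenitors, *Tbr1* marks early-born cortical neurons, and *Fezf2* directs the fate of subcerebral projection neurons.

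*Nr2f1*, *Lhx2*, *Emx2*, *Otx1* and *Pax6* were abundant in both genotypes, *Nr2f2* was low, and *Emx1*, *Tbr1*, *Eomes* and *Fezf2* had at most 15 counts in any library. *Lhx2* was 1.57-fold higher in cko NSCs and *Nr2f2* was 2.64-fold lower. The other factors did not pass the test or had too few counts to be tested. Of the 10 genes, 7 passed the filter on low counts and were tested together with all other expressed genes by edgeR's quasi-likelihood test. At a Benjamini-Hochberg adjusted p under 0.05 over 16710 genes, 1 of the 7 was higher and 1 was lower, where 7.86% of all genes tested were higher and 8.57% were lower. The genotypes did not overlap in 5 of the 7, and they did not overlap in 49.7% of all genes tested. Log2 fold changes are cko minus ctrl throughout, and their median over all genes tested was -0.003.

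**Figure D1:**
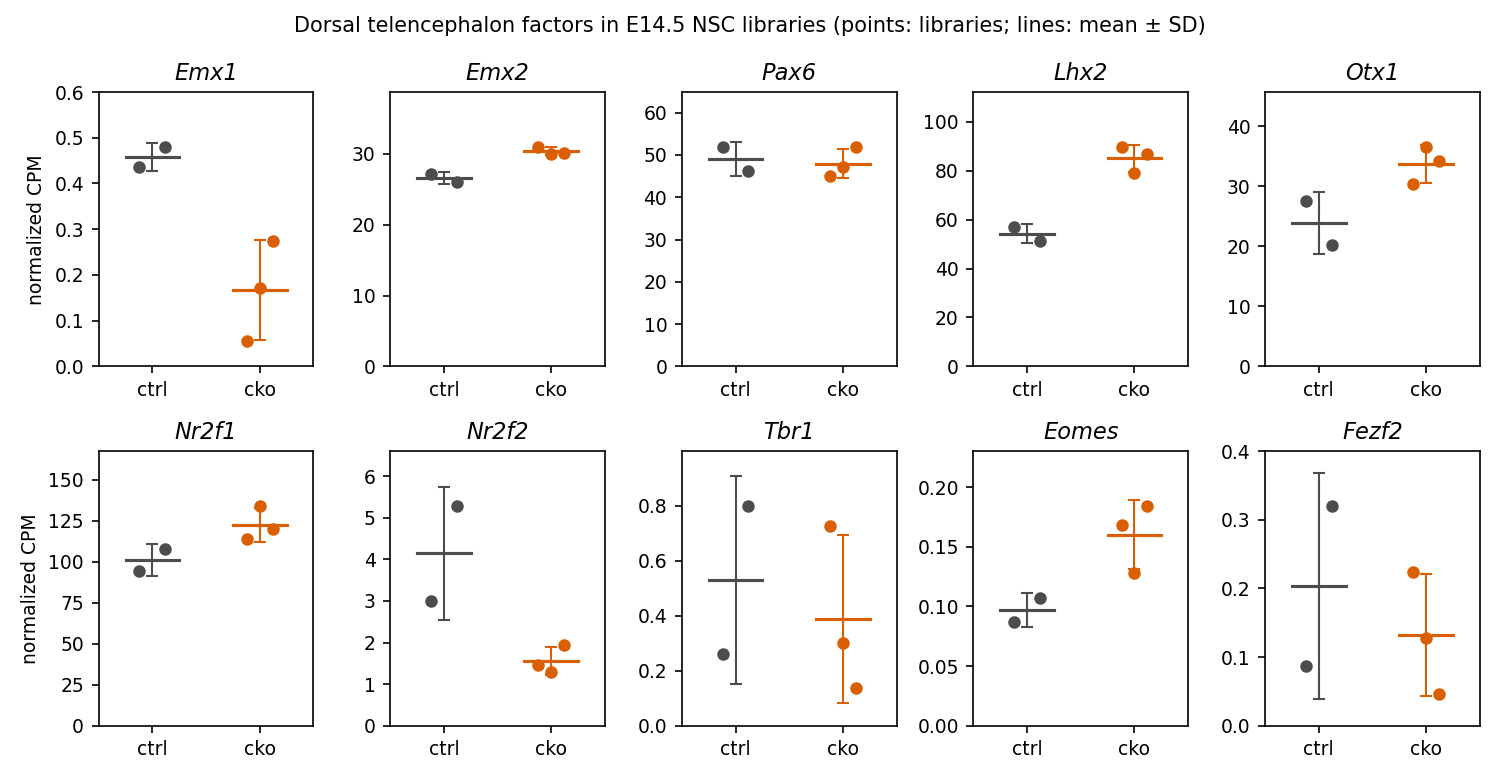
Normalized CPM (y axis, linear from 0, with its own scale in each panel) of the 10 factors in the ctrl and cko NSC libraries, with 1 point per library, lines for the mean and bars for the SD (n = 2 ctrl and 3 cko). The cko points of *Lhx2* lie between 79.0 and 89.7 CPM, all above ctrl, and those of *Nr2f2* lie between 1.28 and 1.93 CPM, all below ctrl, while *Emx1*, *Tbr1*, *Eomes* and *Fezf2* stay under 1 CPM.

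*Emx1* is the gene that drives Cre in the cko embryos, and it was scarce in both genotypes. Its raw counts were 10 in ctrl 1 and 9 in ctrl 3, against 1 in cko 1, 4 in cko 2 and 6 in cko 3. Both ctrl libraries were above all cko libraries, although only a few reads separate them. Summed over libraries, *Emx1* had 19 counts in ctrl, or 0.455 CPM before TMM scaling, with an exact Poisson 95% interval of 0.274 to 0.711. The cko libraries had 11 counts, or 0.175 CPM with an interval of 0.0872 to 0.313. The intervals overlap at their ends, and the estimate of each genotype lies outside the interval of the other. These intervals cover counting error only. The gene was removed by the filter on low counts. In the alternative without a filter, edgeR gave a log2 fold change of -1.38 (SE 0.84, adjusted p = 0.363), which did not pass the test. *Emx1* (ENSMUSG00000033726) lies on chromosome 6 from 85187438 to 85204462 on the plus strand (GRCm38, GENCODE M21), where no other annotated gene overlaps it. Transcripts of the Emx1-IRES-Cre allele also contain *Emx1* sequence, and the counts do not separate the alleles.

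*Emx2*, the paralog of *Emx1* and a factor of caudal and medial cortical identity, was well measured. It stood at 27.2 and 26.0 CPM in ctrl 1 and ctrl 3, and at 31.0, 30.0 and 30.2 CPM in cko 1 to 3. The cko libraries were all above ctrl, but by little. The means were 26.6 ± 0.860 (SD, n = 2) and 30.4 ± 0.510 CPM (SD, n = 3). The log2 fold change was 0.19 (SE 0.09, 95% interval -0.02 to 0.40), and it did not pass the test (edgeR, adjusted p = 0.191). Per kilobase of exon, *Emx2* exceeded *Emx1* 45.4-fold and 39.4-fold in ctrl 1 and ctrl 3, and 403-, 127- and 79.7-fold in cko 1 to 3. The ratio in cko 1 rests on 1 *Emx1* read. *Emx2* (ENSMUSG00000043969) lies on chromosome 19 from 59458372 to 59465357, plus strand. Its antisense neighbour *Emx2os* shares 264 exon bases with it and had 146 to 213 counts per library. Whether counting used strand is not given in the sources used here, so some of these reads could be assigned to either gene. No run of 50 bases is shared between the exons of *Emx1* and *Emx2*.

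*Pax6* showed no difference beyond its spread. It was measured at 51.9 and 46.1 CPM in ctrl 1 and ctrl 3, and at 44.9, 47.2 and 51.8 CPM in cko 1 to 3. The genotypes overlapped, and the lowest and the highest library differed by little more than the ctrl libraries did. The log2 fold change was -0.03 (SE 0.10, edgeR, adjusted p = 0.856), with a 95% interval of -0.26 to 0.20. *Pax6* (ENSMUSG00000027168) lies on chromosome 2 from 105668900 to 105697364, plus strand. The antisense gene *Pax6os1*, which shares no exon base with it, had at most 3 counts in a library.

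*Lhx2* was higher in every cko library. It stood at 57.0 and 51.4 CPM in ctrl 1 and ctrl 3, and at 89.7, 79.0 and 86.6 CPM in cko 1 to 3. The lowest cko library was above the higher ctrl library by more than the ctrl libraries differed from each other. The means were 54.2 ± 3.92 (SD, n = 2) and 85.1 ± 5.48 CPM (SD, n = 3). The log2 fold change was 0.65 (SE 0.09, 95% interval 0.44 to 0.86) with an adjusted p of 0.00524 by edgeR. The call held in all 13 alternative settings, with log2 fold changes of 0.58 to 0.72. Per kilobase of exon, *Lhx2* was 2.92 and 2.97 times *Pax6* in ctrl 1 and ctrl 3, and 5.32, 4.46 and 4.45 times *Pax6* in cko 1 to 3. *Lhx2* (ENSMUSG00000000247) lies on chromosome 2 from 38339281 to 38369733, plus strand. The antisense genes *Gm27197* and *Gm13584* share no exon base with it and had at most 7 and 22 counts.

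The promoter of *Lhx2* is shown because it was the factor called higher. In RefSeq's 300 bases around its first start site (GRCm38.p6, 250 before to 50 after), GC content was 74.7%, a value reached by 4.2% of 32851 such windows of mouse genes, whose median was 52.7%. The GC box GGGCGG, searched on both strands, occurred 4 times, while 35.7% of all windows held at least 1. These 30-base stretches upstream of the start show 3 of them in capitals, beginning 123, 76 and 64 bases before the start. The second stretch overlaps the third, and a match is a description of the letters, not evidence of binding. Another *Lhx2* window, at a start site further downstream, had a GC content of 69.3% and 0 GC boxes. The window of *Emx1*, which was scarce in both genotypes, had 74.0% and 3.
*Lhx2*, chr2:38339146-38339175, plus strand: ggagacggagggGGGCGGgccgagccaaac
*Lhx2*, chr2:38339193-38339222, plus strand: aagccagtgacgGGGCGGgagcgggggcgg
*Lhx2*, chr2:38339205-38339234, plus strand: gggcgggagcggGGGCGGgggtgggtggca

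*Otx1* was higher in the cko libraries, but its ctrl libraries lay far apart. It was at 27.6 and 20.3 CPM in ctrl 1 and ctrl 3, and at 30.4, 36.6 and 34.3 CPM in cko 1 to 3. All cko libraries were above both ctrl libraries, the nearest by less than the ctrl libraries differed. The means were 23.9 ± 5.14 (SD, n = 2) and 33.8 ± 3.12 CPM (SD, n = 3), and the log2 fold change was 0.50 (SE 0.15, 95% interval 0.14 to 0.85). It missed the threshold in edgeR (adjusted p = 0.0647). Without ctrl 1 it passed, with a log2 fold change of 0.73 (adjusted p = 0.00699), and without ctrl 3 it stood at 0.30 (adjusted p = 0.134). DESeq2 gave an adjusted p of 0.0308. *Otx1* (ENSMUSG00000005917) lies on chromosome 11 from 21994764 to 22002897, minus strand, with no overlapping gene.

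Of the COUP-TF pair, only *Nr2f2* passed the threshold. *Nr2f1* (COUP-TFI), the most abundant of the 10 factors per kilobase, was at 94.3 and 108 CPM in ctrl 1 and ctrl 3, and at 114, 134 and 120 CPM in cko 1 to 3. The genotypes did not overlap, although ctrl 3 and cko 1 were close. The means were 101 ± 9.80 (SD, n = 2) and 123 ± 10.2 CPM (SD, n = 3). The log2 fold change was 0.28 (SE 0.10, 95% interval 0.05 to 0.51) and did not pass the test over all genes (edgeR, adjusted p = 0.0999). Without ctrl 3 it was 0.39 (adjusted p = 0.0284), and without ctrl 1 it was 0.17 (adjusted p = 0.269). *Nr2f1* (ENSMUSG00000069171) lies on chromosome 13 from 78188973 to 78199757, minus strand. The antisense gene *A830082K12Rik* shares 123 exon bases with it and had 265 to 392 counts.

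*Nr2f2* (COUP-TFII), which in the forebrain is also expressed in caudal ganglionic eminence and vascular cells, was lower in every cko library. Its raw counts were 69 and 99 in ctrl 1 and ctrl 3, and 26, 30 and 42 in cko 1 to 3. As normalized values these were 3.01 and 5.28 CPM, against 1.45, 1.28 and 1.93 CPM. The genotypes did not overlap, and ctrl 3 was 1.75-fold above ctrl 1. The means were 4.14 ± 1.60 (SD, n = 2) and 1.56 ± 0.334 CPM (SD, n = 3). The log2 fold change was -1.40 (SE 0.33, 95% interval -2.17 to -0.63, edgeR, adjusted p = 0.0290). It passed the threshold in 9 of 13 alternative settings, which include those with all 6 columns, where the ctrl spread is understated. The call was lost when any of 4 libraries was left out. Without ctrl 3 the log2 fold change was -0.95 (adjusted p = 0.0890), and without cko 1, cko 2 or cko 3 it was -1.37, -1.29 or -1.60 (adjusted p = 0.0868, 0.120 and 0.0749). Without ctrl 1 it was -1.77 (adjusted p = 0.00468).

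*Nr2f2* (ENSMUSG00000030551) lies on chromosome 7 from 70351944 to 70366735, minus strand. The opposite-strand gene *B130024G19Rik* shares 643 of the 8625 exon bases of *Nr2f2*. It had 13 and 6 counts in ctrl 1 and ctrl 3, and 1, 1 and 3 in cko 1 to 3. In the same order, *Nr2f2* had 69, 99, 26, 30 and 42. The use of strand in counting is not given, so some reads of the shared bases could be assigned to either gene. Their part in the lower *Nr2f2* counts of cko was not tested. The exons of *Nr2f1* and *Nr2f2* share 10 words of 50 bases, 0.117% of those of *Nr2f2*. Per kilobase of exon, *Nr2f1* was 53.0 and 34.7 times *Nr2f2* in ctrl 1 and ctrl 3, and 133, 177 and 106 times *Nr2f2* in cko 1 to 3.

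The promoter of *Nr2f2* is shown as that of the factor called lower. Its RefSeq window had a GC content of 49.7% and an observed-to-expected CpG ratio of 0.11, where the median over all windows was 0.38 and 15.6% of windows were as low. The letters CCAAT, searched on both strands, occurred 2 times, while 37.4% of all windows held at least 1. The matches are in capitals, the first on the strand of the gene and the second as its reverse complement ATTGG, with first bases 162 and 205 bases before the start. None of the 12 windows of the 9 factors in the RefSeq table held TATAAA on either strand, which 13.6% of all windows held. *Otx1* was not matched.
*Nr2f2*, chr7:70366892-70366920, minus strand: aaaatgaggattCCAATtgattcctagga
*Nr2f2*, chr7:70366935-70366963, minus strand: ggaagaaaaatcATTGGggaggggggact

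The 3 factors of intermediate progenitors and cortical neurons were near zero in both genotypes. *Tbr1* had 6 and 15 counts in ctrl 1 and ctrl 3, and 13, 7 and 3 in cko 1 to 3. The genotypes overlapped, and the ctrl libraries differed 3.05-fold in CPM. Its log2 fold change was -0.46 (SE 0.77, 95% interval -2.27 to 1.35, edgeR, adjusted p = 0.724), and it was 0.51 without ctrl 3. *Tbr1* (ENSMUSG00000035033) lies on chromosome 2 from 61802930 to 61814114, plus strand.

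*Eomes* had 2 and 2 counts in ctrl and 3, 3 and 4 in cko, and *Fezf2* had 2 and 6 in ctrl and 4, 3 and 1 in cko. Both were removed by the filter. Summed, *Eomes* stood at 0.0959 CPM in ctrl (exact Poisson 95% interval 0.0261 to 0.245) and at 0.159 in cko (0.0762 to 0.292). *Fezf2* stood at 0.192 in ctrl (0.0828 to 0.378) and at 0.127 in cko (0.0549 to 0.250). For both genes, the estimate of each genotype lay within the interval of the other. In the alternative without a filter, the adjusted p by edgeR was 0.794 for *Eomes* and 0.798 for *Fezf2*. *Eomes* (ENSMUSG00000032446) lies on chromosome 9 from 118478212 to 118486132, plus strand, and shares 118 exon bases with the antisense gene *Gm33460*, which had at most 3 counts. *Fezf2* (ENSMUSG00000021743) lies on chromosome 14 from 12342094 to 12348189, minus strand.

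**Figure D2:**
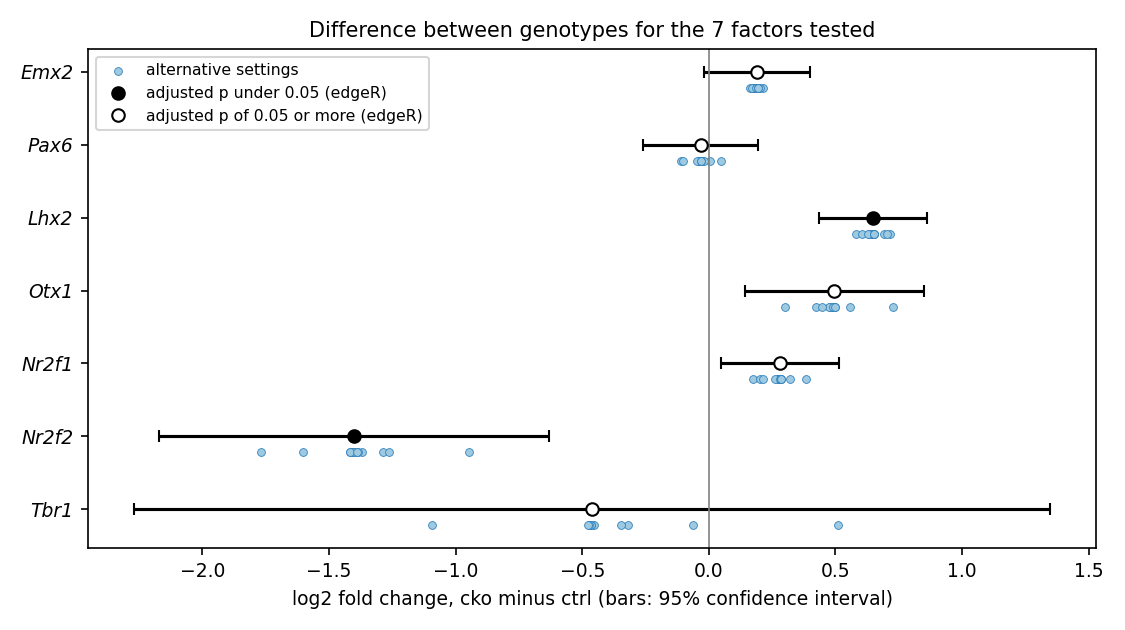
Log2 fold change, cko minus ctrl (x axis), of the 7 factors tested, with bars for the 95% confidence interval by edgeR on 2 ctrl and 3 cko libraries and small points for the alternative settings. The filled points, *Lhx2* at 0.65 and *Nr2f2* at -1.40, had an adjusted p under 0.05, and the interval of *Tbr1* reaches from -2.27 to 1.35.

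Levels between genes were compared as CPM per kilobase of merged exons, over the 5 libraries. *Nr2f1* was highest at a mean of 22.4 (range 18.5 to 26.3), followed by *Lhx2* at 16.6 (11.7 to 20.4), *Emx2* at 9.62 (8.66 to 10.3), *Otx1* at 5.50 (3.74 to 6.74) and *Pax6* at 4.14 (3.84 to 4.44). *Nr2f2* came next at 0.300 (0.149 to 0.612), then *Emx1* at 0.130, *Tbr1* at 0.0811, *Fezf2* at 0.0528 and *Eomes* at 0.0324. *Lhx2* and *Emx2*, *Emx2* and *Otx1*, and *Pax6* and *Nr2f2* were separated in range, and every other pair of neighbours overlapped. *Nr2f1* was nevertheless above *Lhx2* in 5 of 5 libraries, and *Otx1* was above *Pax6* in 4 of 5. This order depends on the merged length over all annotated transcripts, which was 11694 bases for *Pax6*, 5422 for *Otx1* and 3002 for *Emx2*. In CPM without this scaling, *Pax6* was above both in every library. It stood at 44.9 to 51.9, *Otx1* at 20.3 to 36.6 and *Emx2* at 26.0 to 31.0 CPM. Ratios between genes per kilobase depend on these lengths as well.

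**Figure D3:**
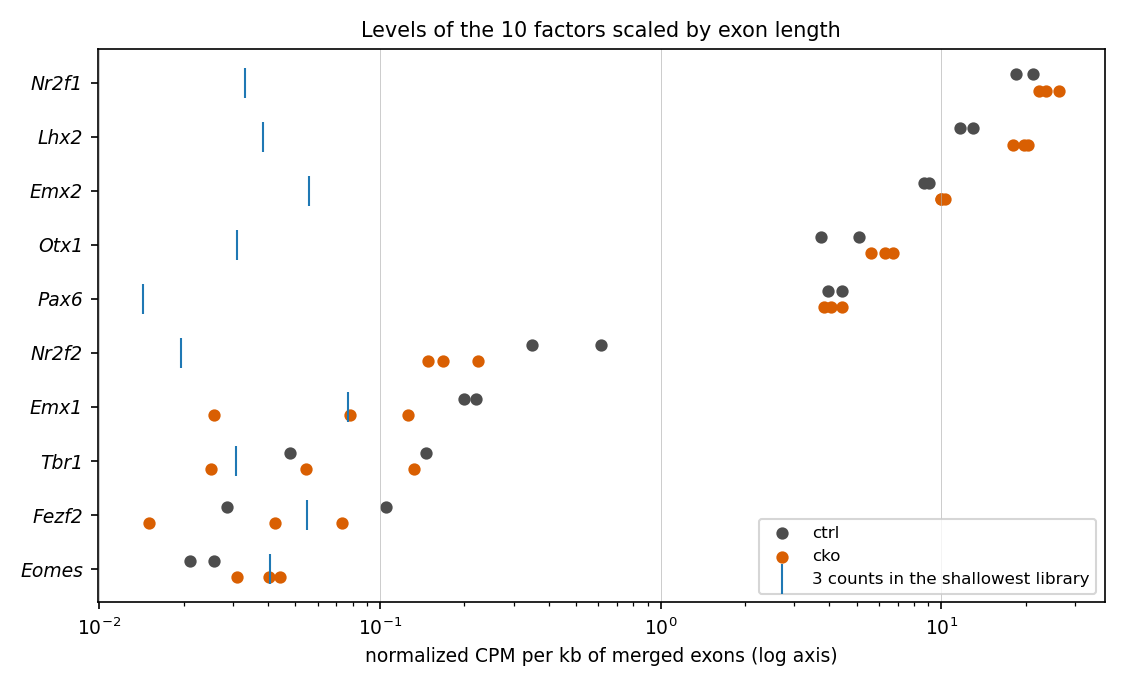
Levels of the 10 factors as normalized CPM per kilobase of merged exons (x axis, log scale), 1 point per library, with a tick where 3 counts in the shallowest library would lie. The 5 abundant factors lie between 3.74 and 26.3, and the points of *Emx1*, *Eomes*, *Fezf2* and *Tbr1* lie on both sides of it.

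The genes whose profile over the 5 libraries was nearest to that of a called factor were found by the root mean square (RMS) difference of mean-centred log2(CPM + 0.5) values. For *Lhx2*, whose own profile had an RMS of 0.33, they were *Ss18l2* (RMS difference 0.035), *Itgb3bp* (0.039) and *Platr25* (0.041). For *Nr2f2*, with an RMS of 0.62, they were *Abcg1* (0.060), *Gm14286* (0.079) and *Sphk1* (0.090). With 5 libraries these are descriptions of likeness and carry no test.

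The other factors of cortical progenitors moved in both directions. Of 20 genes listed as cortical field factors, 18 were tested, 5 were higher, 3 were lower, and the median log2 fold change was 0.33. For this and the later lists, 7.86% of all genes tested were higher and 8.57% lower. The lists were chosen with earlier results of these data known. The higher genes included *Hes5*, a Notch effector (0.93, edgeR, adjusted p = 0.00107), *Meis2* (0.72, adjusted p = 0.0110), the POU factor *Pou3f4* (0.50, adjusted p = 0.00905) and *Sox5* (0.42, adjusted p = 0.0103). The lower genes were *Tcf7l2*, a Wnt effector (-1.14, adjusted p = 0.00259), *Gli3*, a Hedgehog pathway repressor that dorsal identity requires (-1.04, adjusted p = 0.0269), and *Zbtb20* (-0.42, adjusted p = 0.0237). *Gli3* stood at 18.6 and 13.2 CPM in ctrl 1 and ctrl 3, and at 10.1, 6.38 and 6.89 CPM in cko 1 to 3.

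Signals of the cortical hem and antihem, the tissues that flank the cortical field, were mostly scarce. Of 18 listed, 17 had a row and 9 were tested, with 1 higher and 3 lower and a median log2 fold change of -0.05. *Nrg1*, a neuregulin of the antihem, was higher (1.06, edgeR, adjusted p = 0.00441). *Wnt7b* was lower (-0.70, adjusted p = 0.00248), as was *Tgfa* (-0.52, adjusted p = 0.0355). *Bmp4*, a hem signal, had 13 and 13 counts in ctrl and 0, 1 and 1 in cko (adjusted p = 0.0127), too few for a fold.

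Among 19 factors of the excitatory lineage, which include *Tbr1*, *Eomes* and *Fezf2*, 12 were tested, 2 were higher and 0 were lower by edgeR, with a median of 0.32. At an unadjusted p under 0.05, 1 was lower, and by DESeq2 0 were. The higher genes were *Bcl11b* (CTIP2, a factor of deep-layer neurons) at 0.77 (edgeR, adjusted p = 0.0226) and *Zfpm2* (FOG2) at 0.44 (adjusted p = 0.0126). *Neurog1* had at most 1 count in a library, whereas *Neurog2* was at 4.96 to 7.80 CPM and *Insm1* at 6.08 to 10.2 CPM. These 3 were named after their values were seen.

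Some ventral telencephalon factors were present beside the dorsal ones, and others were near zero. Of 20 listed, 13 were tested, 3 were higher and 2 were lower, with a median of 0.28. At an unadjusted p under 0.05, 3 were higher and 4 lower, and 8 of the 13 had a positive log2 fold change. *Dlx1* (-1.02, edgeR, adjusted p = 0.176), *Dlx2* (-1.18, adjusted p = 0.0826) and *Sp9* (-0.90, adjusted p = 0.124) were not called. All cko libraries were below ctrl for each of them, and they were named after their values were seen. *Olig1* and *Olig2*, which also mark the oligodendrocyte lineage, had mean levels of 751 and 277 CPM per kilobase, far above the 22.4 of *Nr2f1*. *Olig1* was higher in cko (0.63, edgeR, adjusted p = 0.0108), as were *Olig2* (0.38, adjusted p = 0.0444) and *Gad1*, the GABA-synthesizing enzyme (0.69, adjusted p = 0.0342). The call of *Olig2* held in 6 of 13 alternative settings, which include those with all 6 columns. It was lost with median-of-ratios size factors (edgeR, adjusted p = 0.0503), at least 10 counts in every library (0.0519) and the replicate block (0.126). The call was also lost without ctrl 1 (log2 fold change 0.24), cko 1 (0.40), cko 2 (0.33) or cko 3 (0.38). *Gad1* stood at 0.42 without ctrl 1 (adjusted p = 0.0460) and lost the call without cko 1 (0.63), cko 2 (0.75) or cko 3 (0.64). *Six3* fell from 30.0 and 24.2 CPM in ctrl 1 and ctrl 3 to 2.29, 1.84 and 1.42 CPM in cko 1 to 3 (log2 fold change -3.88, adjusted p = 0.000367). *Nkx6-2* was lower as well (-1.38, adjusted p = 0.0345). *Nkx2-1*, the defining factor of the medial ganglionic eminence, had 5 and 3 counts in ctrl and 0 in each cko library, and it was named after its values were seen.

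Factors of other brain regions were few. Of 19 listed, 15 had a row and 8 were tested, with 1 higher, 3 lower and a median of -0.24. *Lhx9*, a LIM homeobox factor, had 7 and 1 counts in ctrl and 13, 34 and 26 in cko (adjusted p = 0.0393). *Otx2*, the paralog of *Otx1*, was lower (-2.13, adjusted p = 0.00368). So were *Nkx2-2* (-0.60, adjusted p = 0.0155) and *En2*, a midbrain and hindbrain factor (-0.65, adjusted p = 0.0456), all by edgeR. *Otx2* stood at 8.42 and 7.09 CPM in ctrl 1 and ctrl 3, and at 1.51, 2.36 and 1.42 CPM in cko 1 to 3. Of the 22 genes called and named from the 5 lists, 16 lost the call without cko 2 and 16 without cko 3, 7 without cko 1, 3 without ctrl 3 and 2 without ctrl 1. *Hes5*, *Tcf7l2*, *Nrg1*, *Wnt7b*, *Six3* and *Otx2* kept the call in all 13 alternative settings.

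**Figure D4:**
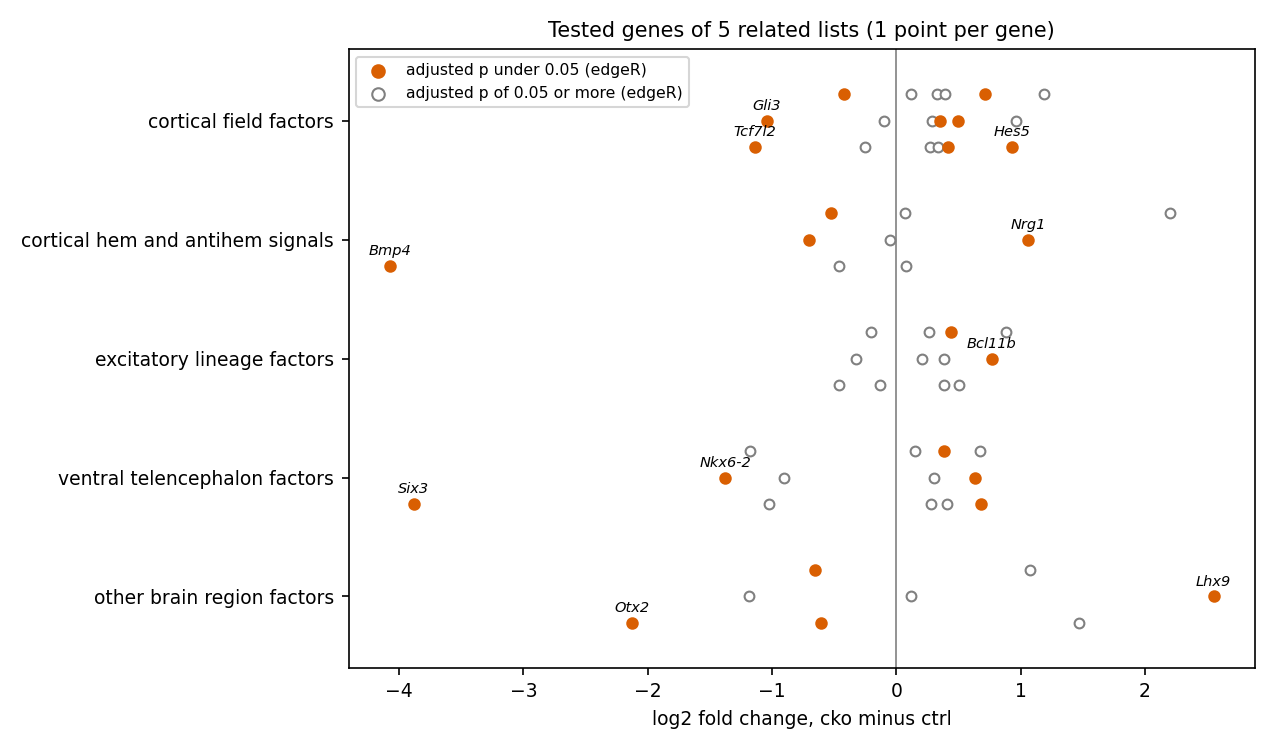
Log2 fold change, cko minus ctrl (x axis), of the tested genes of 5 related lists, 1 point per gene, filled where the adjusted p by edgeR was under 0.05. Each list has filled points, on both sides of 0 except for the excitatory lineage factors, and the fitted values of *Bmp4* and *Lhx9* rest on few counts.

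Markers of other cell types differed between the genotypes beside these factors. All 7 astrocyte markers were tested by edgeR, 0 were higher (0 also at an unadjusted p under 0.05 and by DESeq2) and 4 were lower in cko, with a median log2 fold change of -1.15. Their summed level was 1700 to 2610 CPM in ctrl and 773 to 1360 CPM in cko. Of 8 oligodendrocyte lineage markers, 0 were higher by edgeR (1 at an unadjusted p under 0.05 and 1 by DESeq2) and 5 were lower, with a median of -2.40. Their summed level was 1120 to 1380 CPM in ctrl and 675 to 730 CPM in cko. Of 9 meningeal and vascular markers, 8 had a row and 5 were tested, with 1 lower. Their summed level was 17.7 to 23.9 CPM in ctrl and 9.73 to 12.4 CPM in cko. Most of that difference lay in *Foxc1*, the 1 gene called lower. *Foxc1* was at 10.6 and 15.2 CPM in ctrl 1 and ctrl 3, and at 3.24, 3.60 and 3.86 CPM in cko 1 to 3. Of the 5 tested, 4 had a negative log2 fold change and 1 a positive one. The vascular markers *Kdr* (0.43, edgeR, adjusted p = 0.236) and *Pecam1* (-0.22, adjusted p = 0.821) were not called. The part of these cell types in the values of *Lhx2*, *Nr2f2* and the listed genes was not tested.

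Of 10 NSC markers, 3 were higher and 2 were lower, with a median of 0.21. *Nes*, *Prom1* and *Notch1* rose, and *Hes1* and *Slc1a3* fell. Of 8 neuron markers, 7 were tested, 2 were higher and 1 was lower, with a median of 0.14. The 6 microglial markers summed to 0.480 to 0.906 CPM in ctrl and 0.0459 to 0.503 CPM in cko, and 0 of them passed the filter on low counts.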

How the data were processed

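RNA-seq libraries of NSCs from E14.5 cko and ctrl embryos, grown for 3 generations, were compared. The authors filtered the reads, aligned them with HISAT2 to mm10 (their labels name GRCm39) and deposited raw counts per gene. The counting program, annotation and use of strand are not given in the sources used here. Of the 6 columns that the authors deposited, the other kind of value is in that of ctrl 2, a rounded-up mean, which was left out. The medium and the RNA kit are described differently in the methods and the labels.

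Symbols, positions and merged exon lengths came from GENCODE M21 (GRCm38), which matched 31829 of 32493 gene IDs. The analysis used edgeR 4.0.16 under R 4.3.3: filterByExpr with the genotypes as groups (16710 genes kept), TMM normalization, the quasi-likelihood test and Benjamini-Hochberg adjustment over all genes kept. SE is the log2 fold change over the square root of F. CPM (counts scaled to library size) are counts over library totals times TMM factors, and errors are SD over libraries. Summed counts were divided by summed library totals without TMM factors. Totals of 17883796 to 23335736 counts put 3 counts at 0.129 to 0.168 CPM, and these floors reflect counting error alone.

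The factors and the gene lists were chosen with earlier results of these data known. Named are all 10 factors, from each of the 5 related lists the called genes (at most 4 in each direction, by size of change) and, for each called factor, the 3 nearest profiles. Genes of the cell type marker lists are examples chosen after their values were seen, and other genes are marked. Some results are not reported here. Alternatives were DESeq2 1.42.0, other size factors, filters and thresholds, the replicate block, all 6 columns, and each library left out. For the 5 related lists, these alternatives were added after the data had been seen. The steps were tested on simulated data, where changes were recovered less often in genes below the median count. The share of false calls there was above its nominal level, so calls close to the threshold are less certain than their adjusted p. Recovery at first fell short of the bar set for it, and the bar was lowered after that value was seen. Promoter windows came from RefSeq (GRCm38.p6). Figures were drawn with matplotlib 3.10.9.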

Additional observations from a re-analysis of the deposited data

How the results depend on the processing

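*Lhx2* kept its direction and its call in 13 of 13 alternatives (adjusted p 4.66e-08 to 0.0409, DESeq2 and edgeR). The settings with all 6 columns are counted here, although their ctrl 2 column is an average. Over all alternatives of single genes, the 7 tested factors kept direction and side of the threshold 72 times, passed only in the alternative 10 times, lost the call 4 times and reversed 3 times. The count of factors called higher, 1, became 2 with DESeq2, 3 without a filter, 4 with all 6 columns, 3 with all 6 columns and the replicate block, 0 at the study's threshold (log2 fold change beyond 0.9, unadjusted p under 0.01), and 1 to 2 with 1 library left out. The count of factors called lower, 1, was 0 to 1 with 1 library left out. At the study's threshold the count of factors called lower stayed at 1. That threshold was applied here to the edgeR fit of the 5 libraries, whereas the study used DESeq2. *Pax6* reversed to 0.046 without ctrl 1 and to 0.006 without cko 1 (range -0.109 to 0.046 with 1 library left out), and *Tbr1* to 0.511 without ctrl 3 (range -1.095 to 0.511). None of these had an adjusted p under 0.05, and the cause was not tested. *Tbr1* had no value with at least 10 counts in every library or without cko 1, and its adjusted p in DESeq2 was NA.

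Over all genes tested, 7.86% were higher and 8.57% lower. Of 59 tested genes of the 5 related lists outside the 10 factors, 12 were higher and 11 lower. At the study's threshold these became 3 and 6, and with all 6 columns 17 were lower. With 1 library left out, 2 to 16 were higher and 4 to 15 lower, the lowest counts without cko 2 or cko 3. Such fits use fewer samples, and where 1 ctrl library remains it is assumed to vary like the cko libraries.

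The genotypes share replicate numbers in the labels, but only 2 of them among the 5 libraries, and no label names a shared litter. The study describes the cko and ctrl embryos as littermates, but the sources used here do not give the litter of each library. Deviations of same-numbered libraries from their group means correlated at r = 0.179 for number 1 and 0.055 for number 3 across 16710 genes, which are not independent replicates. With 2 ctrl libraries, the deviations of ctrl 3 are those of ctrl 1 with the sign reversed. The r values are therefore not separate checks, and they cannot decide whether libraries were paired. In the block fit of the 5 libraries, cko 2 is alone with its number, so its block term absorbs it. The genotype estimate of that fit rests on the libraries numbered 1 and 3. With the replicate block, 1 factor was higher by edgeR (*Lhx2*, log2 fold change 0.702, adjusted p = 0.00299) and 1 lower (*Nr2f2*, -1.262, adjusted p = 0.0410). Of the list genes, 9 were called higher and 8 lower. Of the 22 named list genes, 5 were not called with the block. The other block results for the factors kept their side of the threshold. Depth limits *Emx1*, *Tbr1*, *Eomes* and *Fezf2*, which had at most 15 counts in a library.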
